A study of Homo sapiens with 2 samples.

Results

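The genes described here encode the SR proteins, the hnRNP proteins and the SF3A and SF3B subunits of the U2 particle. They were chosen by name: every gene whose annotated symbol begins with SRSF, HNRNP, SF3A or SF3B and that has a probe set annotated to that gene alone. On the array these are 40 of 19775 named genes, read by 137 of 54675 probe sets. They comprise 10 SRSF genes, 21 HNRNP genes and 9 SF3A or SF3B genes. A probe set was called measured when its higher signal was above a floor of 47.9, the median of all signals. By that rule 39 of the 40 genes and 125 of the 137 probe sets were measured, out of 12931 measured genes in all. The exception was the pseudogene HNRNPA3P1, which read 44.2 (control) and 38.3 (knockdown). HNRNPD-DT, a noncoding transcript that starts next to HNRNPD, carries the prefix but encodes no hnRNP protein. SRSF2, SRSF9 and HNRNPH2 are read only by probe sets that list a further gene, and are not among the members.

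RNA was taken from PC-3 cells, a human prostate cancer line derived from a bone metastasis. In the siCONTROL group the cells carried a control vector that expresses a short hairpin RNA (shRNA). In the siSHISA2 group the vector was directed against SHISA2. Each group is 1 array, and both share the cell line, the labelling from 250 ng of total RNA and the presence of an shRNA vector. The sources used here do not say how many cultures were pooled, when cells were harvested or whether vector-carrying clones were selected. The comparison asks how transcript levels differ when SHISA2 is knocked down. Because bulk RNA was measured, a difference in all cells and a larger one in some of them cannot be told apart.

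Splicing removes introns from precursor mRNA. SR proteins bind exons through RNA recognition motifs and recruit the spliceosome through domains rich in arginine and serine, while many hnRNP proteins coat the nascent transcript and block splice sites or exons. The SF3A and SF3B proteins are parts of the U2 small nuclear ribonucleoprotein (snRNP), which recognises the branch site of the intron. Many SR and hnRNP genes are known to control their own level by splicing in a poison exon or retaining an intron, which sends the transcript to nonsense-mediated decay or keeps it in the nucleus. Probe sets of 1 such gene can therefore read different RNA forms.

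The knockdown array gave SHISA2, a membrane protein of the endoplasmic reticulum, a signal of 1506, or 42.6% of the 3536 found with the control vector. Of the fixed markers, the epithelial keratins KRT8 and KRT18 and the adhesion receptor CD44 were well above the floor in both arrays. EPCAM, also on the epithelial list, read 353.6 (control) and 313.1 (knockdown), and CDH1 and KRT19 were under the floor in both arrays. Above the floor in at least 1 array were 2 of 6 leukocyte, 2 of 4 endothelial, 2 of 4 fibroblast and 2 of 4 prostate luminal markers listed. The brightest of these was COL1A1, a fibroblast collagen, at 787.2 (control) and 577 (knockdown). Other COL1A1 probe sets went the other way, at 153.8 and 174.5 and at 50.2 and 95, and 2 further ones were under the floor in both arrays. KLK3, of prostate luminal cells, read 242.3 and 251 on a single probe set and was under the floor on the rest. CDH5, of endothelial junctions, read 155.9 and 261.5. CD79A, of B cells, read 109.1 and 164.6, with its other probe set under the floor. PECAM1, of endothelium, read 104.6 and 121.7, but 70.8 and 44.1 on another probe set, and was under the floor on the rest. The defining markers PTPRC (leukocytes) and VWF (endothelium) were under the floor on every probe set. The part of other cell types in the results was not tested. Without replicate arrays no difference was tested. The technical spread was taken from how far the 2 brightest probe sets of 1 gene stood apart in log2 ratio, as the SD of that gap over genes, scaled to a single probe set by the root of 2. It came to 0.29 over 6428 genes. It was 0.15 over the 2827 genes with several probe sets whose signals both exceeded 387.3, the 75th percentile of all signals. Variation between cultures is not part of either value, nor is any array effect that the probe sets of a gene share. Differences between the RNA forms that probe sets read can enter both values. Each gene is given by its brightest measured probe set unless stated, and every log2 ratio is knockdown over control.

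Transcripts of the splicing factors differed little between the arrays. The median log2 ratio over the 39 measured members was -0.05 (quartiles -0.15 and 0.06), against 0.01 (-0.16 and 0.17) over all measured genes. Of the members 3 were at least 1.2-fold lower, which is 7.69%, where 15.6% of all measured genes were. None was at least 1.2-fold higher, where 16.7% of all measured genes were, and none reached 1.5-fold in either direction (3.77% of all measured genes were that much lower and 5.01% higher). The members are bright on this array, and bright genes vary less. Above 387.3 in both arrays, 10.4% of 7650 genes were lower and 7.65% higher by at least 1.2-fold. Of the 37 members in that range 2 were lower and 0 higher. The SD of their log2 ratios was 0.15, against 0.22 over all genes in the range. Within the range the members were still brighter, with a median control signal of 7222.5 against 1735.3. The part of brightness in these differences was not tested.

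**Figure D1:**
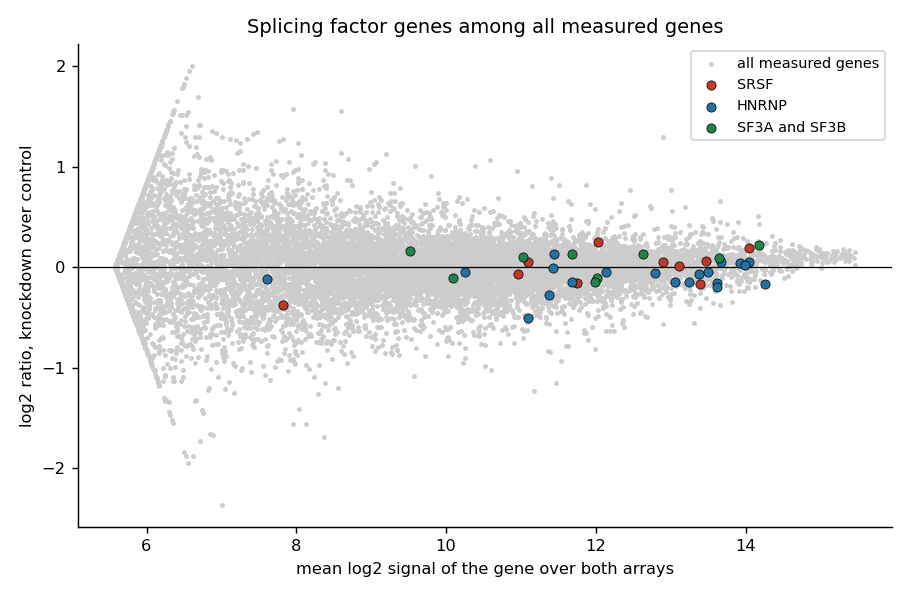
Log2 ratio of knockdown over control (vertical axis) against the mean log2 signal over both arrays (horizontal axis) for all 12931 measured genes (grey) and the 39 measured members, coloured by family. The members lie between -0.50 and 0.25, while the lowest of all measured genes lies at -2.37.

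The sign of the SRSF median depended on the probe sets used, while those of the other families did not change. In the SRSF family 4 of 10 genes were below 0, with a median of 0.03. With averaged probe sets 6 of 10 were below 0 (median -0.08), without _x_at and _s_at probe sets 6 of 8 (-0.14), and after quantile normalization 5 of 10 (-0.00089). In the HNRNP family 15 of 20 measured genes were below 0, with a median of -0.07. The SF3A and SF3B genes had 3 of 9 below 0 and a median of 0.10. Among all measured genes 47.8% were below 0. After quantile normalization and after removal of a loess trend, 17 of 20 HNRNP genes were below 0. The count for SF3A and SF3B was 3 of 9 under these scalings too. No difference between families was tested.

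Among the classical SR proteins, SRSF5 had the highest log2 ratio. SRSF5, which binds exonic enhancers, read 3837 with the control vector and 4565 with the SHISA2 vector (log2 ratio 0.25), and pairs of signals are given in that order from here on. Its other measured probe set read 3483 and 4088 (0.23), so both were higher by nearly the same factor. SRSF3, the smallest SR protein and an adaptor for mRNA export, read 11337 and 10113 (-0.16). Its next probe sets read 6152 and 5503 (-0.16) and 2005 and 1635 (-0.29), and all 3 bright ones were lower in the knockdown array. On its dim ones the ratio was -0.34 and 0.38, with signals of at most 213.8. SRSF4 read 7503 and 7772 (0.05), and SRSF6, another enhancer-binding protein, 2147 and 2226 (0.05). A dimmer probe set of SRSF6 read 413.3 and 352 (-0.23). The brightest probe sets of SRSF1 and SRSF7 were equally flat, at 0.06 and 0.01, but their other probe sets were not, as described further on.

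The remaining SRSF genes ran from -0.37 to 0.19, against -0.16 to 0.25 in the classical SR proteins, with SRSF12 alone at the low end. With the floor at 387.3, where SRSF12 is not measured, they ran from -0.16 to 0.19. SRSF11, which contacts the splice site factor U2AF, read 15859 and 18031 (0.19), with -0.04 on a second bright probe set at 3047 and 2970.4. A dim probe set of SRSF11 read 116.7 and 202.8 (0.80). SRSF10, known as a splicing repressor when it loses its phosphates under heat shock, read 2036 and 1944 (-0.07). SRSF8, an intronless copy of SRSF2, read 3651 and 3269 (-0.16) on a probe set of a kind that can cross-hybridise. SRSF12, which opposes other SR proteins in splice site choice, was the only SRSF gene past 1.2-fold. It read 256.9 and 198.1 (-0.37), and its other probe set 169.2 and 146.6 (-0.21). All 4 signals of SRSF12 lay in the dimmer range under 387.3.

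The hnRNP A and B type genes were all on the lower side on their brightest probe sets, as deposited and under the 3 other scalings. HNRNPA0, which binds AU-rich elements of mRNA, read 2909 and 2402 (-0.28). Its second bright probe set read 2584 and 2157 (-0.26), and the dim one 315.3 and 290.5 (-0.12). HNRNPA2B1, a binder of exonic silencers and of transported RNA, read 20683 and 18433 (-0.17). A second probe set of HNRNPA2B1, in the same range, read 18508 and 19873 (0.10), in the other direction. HNRNPAB read 13266 and 11925 (-0.15) on its single probe set. HNRNPA1, the counterpart of SR proteins in many exon choices, read 10912 and 10368 (-0.07), and HNRNPA3 2768 and 2741 (-0.01). With averaged probe sets 4 of the 5 genes were below 0, and without probe sets that can share probes 2 of 4 were.

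The hnRNP U type genes were likewise on the lower side on their brightest probe sets. HNRNPUL1, a nuclear protein linked to the DNA damage response, had the lowest log2 ratio of all members. It read 2602 and 1836, 70.6% of the control signal (-0.50). A dimmer probe set of HNRNPUL1 read 372.8 and 432.8 (0.22), on the other side of 0. HNRNPU, which binds RNA and chromatin scaffolds, read 13443 and 11720.2 (-0.20), and a second bright probe set 6399 and 5775 (-0.15). Of its 5 measured probe sets 4 were below 0, and a dim one at 89.5 and 99.2 gave 0.15. HNRNPUL2 read 1241 and 1196 (-0.05), and 626.3 and 639 (0.03) on its other measured probe set. All 3 genes stayed below 0 under each alternative setting, and only HNRNPUL1 passed 1.2-fold.

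Of the remaining hnRNP genes with several measured probe sets, HNRNPR and HNRNPL were lower on every one. HNRNPR, which binds mRNAs carried into axons, read 10239 and 9235 (-0.15), 3519 and 3039.6 (-0.21), and 232.3 and 150.8 (-0.62). HNRNPL, a binder of CA repeats, read 3462 and 3125 (-0.15) and 1919.9 and 1627 (-0.24). Its relative HNRNPLL, known for splicing of the CD45 transcript in lymphocytes, read 2667 and 2924 (0.13) but 306.7 and 202.2 (-0.60) on a dim probe set. HNRNPD, also called AUF1 and known for decay of AU-rich mRNAs, read 8928 and 8058 (-0.15). HNRNPD-DT read 203.5 and 187.1 (-0.12). The others were within 0.07 of 0 on the log2 scale: HNRNPC, which packages nascent RNA at uridine tracts, HNRNPK, a binder of cytidine-rich RNA, HNRNPM, HNRNPDL, and the G-run binders HNRNPF, HNRNPH1 and HNRNPH3. For HNRNPK the values were 16151 and 16374 (0.02), and on its other probe set 11227 and 10365 (-0.12). HNRNPH1 read 16641 and 17288 (0.06).

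Within the U2 particle all 3 SF3A subunits were on the higher side. SF3A1 read 3138 and 3431 (0.13), SF3A2 697.1 and 776.8 (0.16), and SF3A3 2020.4 and 2169 (0.10). All 7 measured SF3A probe sets were above 0, as deposited and under the 3 other scalings, and none was 1.2-fold higher. The SF3B subunits were split, with 3 of 6 above 0. SF3B6, which lies next to the branch adenosine, read 17093 and 19935 (0.22), and 110.2 and 135.7 (0.30) on a dim probe set. SF3B5, a small structural subunit, read 6029.8 and 6613 (0.13). SF3B3, a large scaffold subunit, read 4278 and 3854 (-0.15), SF3B4 1135 and 1051 (-0.11), and SF3B2 4292 and 3979.8 (-0.11). A second bright probe set of SF3B3 read 481 and 522.1 (0.12), on the other side of 0. A dim one of SF3B2 read 38.2 and 57.3 (0.26, with the control signal raised to the floor). SF3B1, the subunit that clamps the branch site and is recurrently mutated in cancers, gave 0.09 on its brightest probe set and values on both sides of 0 over all of them.

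**Figure D2:**
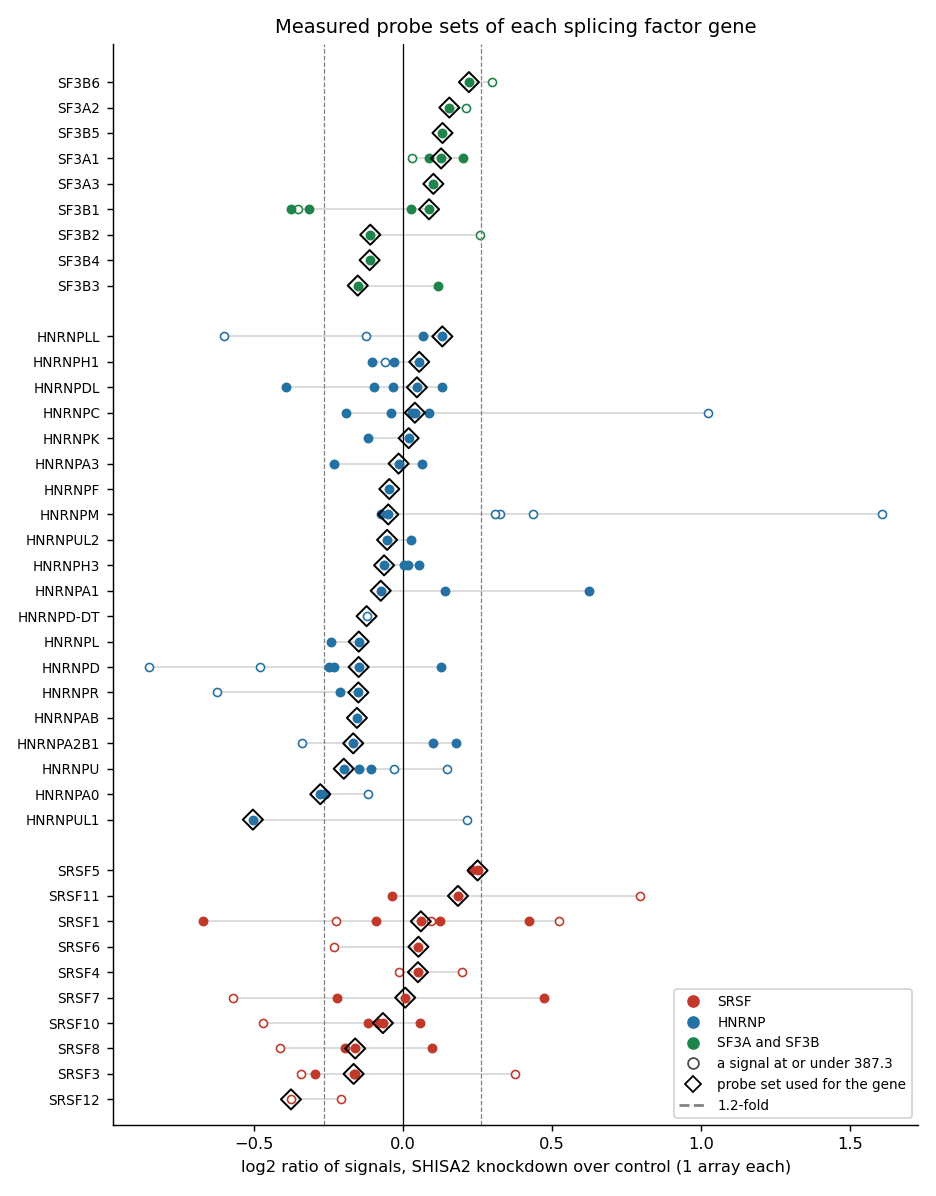
Log2 ratio of knockdown over control for each of the 125 measured probe sets (circles), by gene and coloured by family. Filled circles have both signals above 387.3, open circles a signal at or under it, and diamonds mark the brightest probe set; dashed lines stand at 1.2-fold. Diamonds gather near 0, and the widest spreads, in HNRNPM, HNRNPC, SRSF1 and SRSF7, come with open circles or with several filled ones.

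Probe sets of the same gene often gave different log2 ratios. Of the 125 measured probe sets 18 were at least 1.2-fold lower (background over all measured named probe sets 17.0%) and 12 at least 1.2-fold higher (19.3%). Among the 58 probe sets with both signals above 2000, 3 were past 1.2-fold in either direction, or 5.17% against 11.7% of all such named probe sets. Between 387.3 and 2000 it was 7 of 31, or 22.6% against 22.8%. With a signal at or under 387.3 it was 20 of 36, or 55.6% against 52.8%. The members' share was thus near the background in the dimmer ranges and below it in the brightest. The 2 probe sets at least 2-fold higher (background 1.08%) were both dim. One reads HNRNPM, at 61.8 and 188.2 (1.61), and the other HNRNPC, at 61.9 and 125.7 (1.02). The bright probe sets of these genes stood between -0.19 and 0.09.

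Of the 33 members with several measured probe sets, 8 had all of them on 1 side of 0 (24.2%, against 45.6% of the 6428 such genes overall). Below 0 were SRSF12, HNRNPA0, HNRNPL and HNRNPR, and above 0 SRSF5, SF3A1, SF3A2 and SF3B6. All 8 kept their side on every measured probe set under the 3 other scalings. A gene with more probe sets is less likely to have them on 1 side, and 16 of the 33 had 4 or more. Of those 16 genes 93.8% straddled 0, against 79% of all genes with 4 or more. For the 2 brightest probe sets of a gene the median absolute difference in log2 ratio was 0.09 in the members and 0.20 in all genes, and with probe sets above 387.3 in both arrays 0.08 and 0.12.

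In 4 of 26 members with several probe sets above 387.3, those bright probe sets differed by at least 0.5 in log2 ratio (15.4%, against 5.8% of 2827 genes overall). The median range over bright probe sets was 0.17 in these members and 0.16 in all such genes. Counting bright and dim probe sets, 16 of 33 members and 1278 of 6428 genes had 4 or more measured. The part of probe set number in the ranges was not tested. The 4 members with a range of at least 0.5 were SRSF1, HNRNPA1, SRSF7 and HNRNPDL. In SRSF1, the exonic enhancer binder that acts as an oncogene when overexpressed, the brightest probe set read 11078 and 11553 (0.06). A bright probe set at 1638 and 2196 gave 0.42, and a further one read 894.3 and 562.2 (-0.67), 1 higher and 1 lower by more than 1.2-fold. The remaining bright ones read 2874 and 2703 (-0.09), and 1374 and 1498 (0.12). SRSF1 thus spanned 1.09 on the log2 scale within its bright probe sets alone.

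SRSF7, an SR protein with a zinc knuckle and a further mRNA export adaptor, showed a similar split. Its brightest probe set read 8837 and 8887 (0.01), the next 1669 and 1431 (-0.22), and another bright one 1169 and 1623 (0.47). A dim one read 156.4 and 105.4 (-0.57). In HNRNPA1 1 bright probe set read 622.5 and 960.4 (0.63) and another 757.5 and 835.9 (0.14), against -0.07 on the probe set that represents the gene. In HNRNPDL, a paralogue of HNRNPD that regulates its own splicing, 1 bright probe set read 1509 and 1149 (-0.39), while the other 4 stood between -0.10 and 0.13.

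SF3B1 and HNRNPD were also divided. In SF3B1 the brightest pair read 12387 and 13167 (0.09) and 11878 and 12102 (0.03). The next pair read 3479 and 2796 (-0.32) and 2608 and 2012 (-0.37), and a dim one 281.5 and 220.5 (-0.35). Its 2 brightest were thus level, while the other 3 were lower by similar amounts. After quantile normalization and loess 4 of the 5 were below 0. In HNRNPD the 3 brightest stood between -0.25 and -0.15 and another at 0.13, but dimmer ones read 570.6 and 316.6 (-0.85) and 385.9 and 277.2 (-0.48). The value of -0.85 was the lowest of any member probe set, and one of its signals was under 387.3. Which exons, introns or transcript ends these probe sets read was not analysed here, and the part of transcript form in the splits was not tested.

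**Figure D3:**
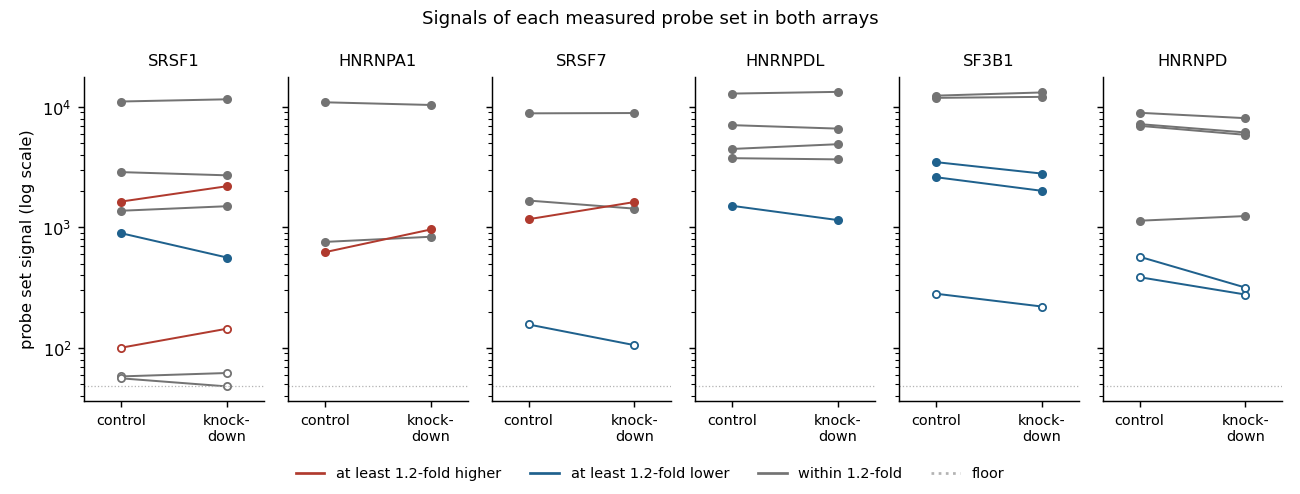
Signals of each measured probe set in the control and the knockdown array (log scale, signals under the floor drawn at it) for the 6 members whose bright probe sets differ most. Red lines are at least 1.2-fold higher, blue lines at least 1.2-fold lower, grey lines within 1.2-fold; open circles have a signal at or under 387.3. In SRSF1, SRSF7 and HNRNPA1 a red line crosses or nears another probe set while the top line is flat, and in SF3B1 the top pair is flat above 3 blue lines.

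The kind of probe set moved with this spread. The 57 measured member probe sets of the _at kind, designed for 1 transcript or gene, had an SD of 0.42. The 45 of the _s_at kind, which can match several transcripts, had 0.16, and the 21 of the _x_at kind, which can cross-hybridise, had 0.17. Both signals were above 387.3 in 50.9% of the _at kind, 91.1% of the _s_at kind and 85.7% of the _x_at kind. Kind and brightness therefore moved together, and the part of each was not tested. Without the _s_at and _x_at kinds 30 members were measured, of which 7 were at least 1.2-fold lower (23.3%, background 17.0%) and 2 at least 1.2-fold higher (6.67%, background 19.0%).

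The medians of the other splicing lists ran from -0.03 to 0.05. SR-related proteins and SR protein kinases had 16 of 18 genes measured, a median of 0.03, and 0 past 1.2-fold in either direction, where 10.4% of genes with both signals above 387.3, as all 16 had, were lower and 7.65% higher. The CLK kinases, which phosphorylate SR proteins in the nucleus, were above 0 in all 4 cases as deposited and under the 3 other scalings, CLK2 highest at 1672 and 1978 (0.24). CLK1, CLK3 and CLK4 read 0.16, 0.19 and 0.12 and were named after their values were seen. SRRM2, a scaffold of nuclear speckles, read 3252 and 3884 (0.26), TRA2B, an SR-like enhancer binder, 10921 and 10187 (-0.10), and SRPK2, a cytoplasmic SR kinase, 2011 and 1825 (-0.14). Other splicing regulators had a median of -0.03 over 29 genes, with 2 lower and 2 higher by 1.2-fold (6.9% each, against 15.6% and 16.7% of all measured genes). At the ends of that list, among genes with both signals above 387.3, were the cold-inducible RBM3 (-0.29) and CIRBP (-0.23) and, on the higher side, TAF15 (0.15) and CELF1 (0.14). RBM3 gave 0.06 and CIRBP up to 1.03 on other probe sets. Probe sets on the other side of 0 were also found for SRPK2 (up to 0.30), TRA2B (up to 0.34), SRRM2 (down to -0.18) and CELF1 (down to -0.04).

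Proteins of the snRNP particles, among them the Sm ring, had a median of 0.05 over 18 genes, with 14 above 0 (15 after median centring, 12 after quantile normalization and 11 after loess) and 1 gene each lower and higher by 1.2-fold (5.56% each, with the same backgrounds). SNRNP200, the helicase that unwinds U4 from U6, read 495.5 and 650.9 (0.39), and SNRPA1, which sits on U2 RNA, 9741 and 11467 (0.24). SNRNP25, of the minor spliceosome, read 1601 and 1335 (-0.26), and SNRPA of the U1 particle 1979.9 and 1842 (-0.10). Factors of U2 recruitment had a median of 0.01 over 12 genes and 0 past 1.2-fold, where 15.6% of all measured genes were lower and 16.7% higher. They ran from U2AF2, which binds the polypyrimidine tract, at -0.20 and the helicase DDX46 at -0.19 to U2AF1 at 0.10 and RBM17 at 0.11. PHF5A, which sits in the SF3B complex under another name and was named after its values were seen, read 1544 and 1545 (0.00084). Tri-snRNP and catalytic step proteins had a median of -0.03 over 32 genes. Of these 1 was lower and 1 higher by 1.2-fold (3.12% each, against 15.6% and 16.7% of all measured genes). Among those with both signals above 387.3, CDC5L (-0.22) and DDX23 (-0.16) stood at one end and LSM7 (0.32) and SART3 (0.18) at the other. Some of these genes had probe sets on the other side of 0. They were DDX46 (up to 0.23), CDC5L (up to 0.02), U2AF1 (down to -0.15), RBM17 (down to -0.25) and SART3 (down to -0.35).

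The exon junction complex and nonsense-mediated decay genes act in the pathway known to degrade poison-exon transcripts of SR genes. Of 16 listed genes 10 were measured, with a median of 0.04. SMG5, a decay adaptor, read 897.1 and 1103 (0.30), and SMG8, a regulator of the SMG1 kinase, 2291 and 2789.8 (0.28). MAGOHB, of the exon junction core, read 702.8 and 558.5 (-0.33), and UPF1, the central helicase, 1593 and 1488 (-0.10). The other probe set of UPF1 gave 0.08. The share of this list at least 1.2-fold higher was 20%, against a background of 16.7%, and 10% were lower, against 15.6%.

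**Figure D4:**
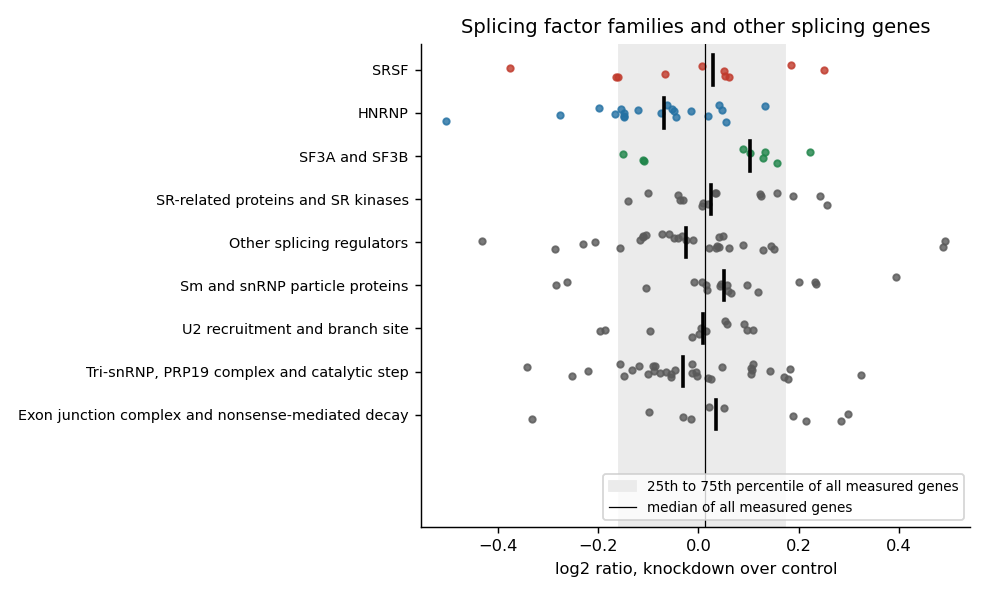
Log2 ratio of knockdown over control of each measured gene (points) in the 3 families and in 6 other lists of splicing genes, with the median of each (thick bar). The shaded band runs from the 25th to the 75th percentile of all measured genes, -0.16 to 0.17. The medians run from -0.07 in HNRNP to 0.10 in SF3A and SF3B.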

How the data were processed

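For 2 arrays the authors deposited linear intensities, 1 signal per probe set, and the submitters' processing notes name MAS5. Its version and scaling target are not given in the sources used here. Detection calls were not used. The mean after trimming 2% at each end was 500.1 in both arrays. MAS5 subtracts mismatch from perfect-match probes, so signals near background are noisy. Of 54675 probe sets 41097 list 1 gene, 1801 several and 11777 none. Gene identifiers of 41043 matched RefSeq (GRCh38.p14, names only), and 0 symbols changed.

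Signals under the floor (47.9) were raised to it. For each gene the brightest measured probe set (by mean log2 signal) was used, and log2 of knockdown over control was computed from it. With 1 array per group no p-value was computed, and 1.2-fold is a size, not a test. The number of arrays limits the precision. The members and gene lists were chosen with earlier results of these data known. Members may all be named. In each other list the 2 highest and 2 lowest genes with both signals above the 75th percentile (387.3) are named, and any further gene is marked. Alternatives were median centring, quantile normalization, a loess trend (span 0.3), floors at the 25th (11.3) and 75th percentile, a pseudocount of 1, averaged probe sets, removal of _x_at and _s_at probe sets, and thresholds of 1.5-fold and 2-fold. The steps were tested on a simulated pair of arrays. Python 3.11.15, pandas 2.3.3 and statsmodels 0.14.6 were used.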

Additional observations from a re-analysis of the deposited data

How the results depend on the processing

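No paired analysis was possible because each group is 1 array. The number of members at least 1.2-fold lower was 3 and moved to 7 without _x_at and _s_at probe sets (of all genes 17.0%), and to 0 at a threshold of 1.5-fold or 2-fold. The number at least 1.2-fold higher was 0 and moved to 2 when probe sets were averaged and to 2 without those kinds (of all genes 17.5% and 19.0%). The median over all members ranged from -0.10 to -0.04, that of the HNRNP genes from -0.11 to -0.06 and that of SF3A and SF3B from 0.10 to 0.12, while that of the SRSF genes ranged from -0.14 to 0.05. SRSF12 was past 1.2-fold lower in 7 of 7 alternatives that measured it, HNRNPUL1 in 7 of 8 (the exception, averaged probe sets, gave -0.14) and HNRNPA0 in 5 of 8. Of 301 values of single members under alternatives, 11 moved by more than the technical spread of 0.29, all 11 when probe sets were averaged or when the shared kinds were left out, and 0 of the 1.2-fold values changed sign. The median range between probe sets of a member was 0.37 and ranged from 0.19 (floor at 387.3) to 0.47 (floor at the 25th percentile).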

Other observations

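SRSF2, SRSF9 and HNRNPH2, which the choice of members leaves out because their probe sets list a further gene, were also close to 0. The probe sets of SRSF2, an SR protein mutated in blood cancers, list the microRNA gene MIR636 as well and read 10616 with the control vector and 10452 with the SHISA2 vector (log2 ratio -0.02), 7923 and 8018 (0.02), and 2523 and 2729 (0.11). Those of SRSF9, listed with GATC, read 9153 and 9203 (0.01) and 7049.5 and 6684 (-0.08). The single probe set of HNRNPH2, listed with a readthrough transcript, read 6497 and 6359 (-0.03). Probe sets shared between HNRNPA1 and its copies read 27625 and 26916 (-0.04) and 25459 and 24182 (-0.07), next to -0.07 on the brightest probe set of HNRNPA1 alone. Those shared between HNRNPA3 and its pseudogene gave -0.09, -0.07 and 0.04.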
